A study of Mus musculus with 12 samples.

Results

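The probes described here are the 225 of 25030 array spots in the authors' table of processed values whose level was lower in beta-catenin knockout than in wild-type footpad skin at every embryonic stage measured. The table is on a log10 scale. The probes were chosen by the knockout mean minus the wild-type mean in that table, which had to be -0.1 or lower at each of the 3 stages, with a mean over the stages at least as low as a 1.4997-fold difference. Every array of the series entered that rule, so the knockout differences of these probes are given as descriptions, with no test. At the limit on the mean, the last 3 probes inside were Z00039869-1 at 1.507-fold, Z00026540-1 at 1.504-fold and Z00024562-1 at 1.503-fold lower, and the nearest 3 outside were Z00036409-1 at 1.4993-fold, Z00027174-1 at 1.4971-fold and Z00036268-1 at 1.4962-fold. The margin between members and their nearest neighbours was therefore narrow on this scale.

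The samples were footpad skin of C57BL/6 mouse embryos, either wild type or with a knockout of beta-catenin that the series describes as specific to skin. Embryos were taken on embryonic days E15.5, E16.5 or E17.5, with 2 arrays for each genotype and day, which makes 6 groups and 12 arrays. The Cre driver, the tissue layer it reaches and any pooling of embryos are not given in the sources used here, nor is whether replicate samples were taken from different embryos. Footpad RNA was labelled with Cy3 and hybridised against a common reference labelled with Cy5, a pool of RNA from 11 mouse cell lines mixed with RNA of 129 embryonic stem cells. A log2 ratio below always means footpad over reference.

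Beta-catenin is the protein through which canonical Wnt signals reach the nucleus, where it acts with TCF and LEF factors on target genes. When Wnt is absent it is marked for breakdown in the cytoplasm. In embryonic skin this pathway is needed for the first epidermal placodes of hair follicles and other appendages, and in mouse footpads those appendages are the eccrine sweat glands. The title of the series sets the knockout within a cascade of Wnt, Eda and Shh signals in sweat gland formation.

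A gene name or a genome position is given in the files for 0 of the 225 probes, so each is identified by the manufacturer's code and by its sequence of 60 bases. The level of the targeted transcript, members of the Wnt, Eda and Shh pathways, and skin or other cell type markers were not analysed here for that reason. The genotype labels were thus not checked against the deleted gene, nor the tissue label against its markers. In tissue RNA, fewer cells of a type and less RNA per cell cannot be told apart.

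The 10 probes with the lowest mean difference on the authors' values are shown first because their values are given array by array further on. They are printed 5′ to 3′ in lower case, in order from the lowest.
Z00054665-1: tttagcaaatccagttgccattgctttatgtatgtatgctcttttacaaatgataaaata
Z00008117-1: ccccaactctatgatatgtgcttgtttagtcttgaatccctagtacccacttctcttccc
Z00071322-1: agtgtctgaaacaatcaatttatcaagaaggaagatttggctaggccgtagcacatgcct
Z00046552-1: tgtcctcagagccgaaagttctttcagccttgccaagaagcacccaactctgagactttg
Z00077373-1: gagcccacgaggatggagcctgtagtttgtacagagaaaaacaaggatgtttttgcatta
Z00023904-1: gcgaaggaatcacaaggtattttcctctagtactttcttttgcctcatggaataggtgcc
Z00022557-1: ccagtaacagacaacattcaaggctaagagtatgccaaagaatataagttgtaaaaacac
Z00032669-1: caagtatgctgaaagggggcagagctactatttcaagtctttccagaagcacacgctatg
Z00040631-1: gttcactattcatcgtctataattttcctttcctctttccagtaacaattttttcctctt
Z00005948-1: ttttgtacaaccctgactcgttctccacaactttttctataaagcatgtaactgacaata

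Several members share their sequence with a further probe of the array that is not a member, which gives a second reading of the same stretch of RNA. The pairs on which that comparison turns are printed with the longest shared run in capitals, and each member is followed by its partner. The partner of Z00054665-1 is Z00070655-1, whose 60 bases are identical.
Z00074497-1: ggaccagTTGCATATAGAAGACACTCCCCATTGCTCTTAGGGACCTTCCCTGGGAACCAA
Z00025579-1: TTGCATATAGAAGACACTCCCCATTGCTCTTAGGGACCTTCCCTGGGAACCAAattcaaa
Z00034984-1: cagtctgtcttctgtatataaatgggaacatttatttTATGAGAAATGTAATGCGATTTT
Z00057782-1: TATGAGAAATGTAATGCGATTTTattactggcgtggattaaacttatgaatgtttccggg
Z00031086-1: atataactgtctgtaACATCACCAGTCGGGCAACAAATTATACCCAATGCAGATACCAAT
Z00059005-1: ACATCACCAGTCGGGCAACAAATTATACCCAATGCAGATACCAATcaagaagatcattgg

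The probes shared little in sequence beyond what the array holds in general. Their GC content had a median of 45% (range 25% to 70%), against 43.3% over all 42006 probes. The hexamer AATAAA, the core of the commonest polyadenylation signal, was found on the probe strand in 18 members, which is 8% of them against 6.93% of all probes. On either strand it was found in 27 members, or 12% against 10.1%. ATTAAA, its commonest variant, was found on the probe strand in 4 members, or 1.78% against 3.19%, and on either strand in 8, or 3.56% against 5.4%. No member shared 20 or more bases with another member, and 12 members (5.33%) shared such a run with some other probe, against 6.93% of all probes. A run of at least 30 bases was shared with a RefSeq promoter of the GRCm38.p6 table by 1 member, which was above background on 0 arrays. No member matched a miRNA.

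An array spot is called well above background by the scanner software, and 127 of the 225 probes were so called in Cy3 on all 12 arrays. A filter of 2 such arrays kept 211 members among 30366 probes, and the 14 that did not pass comprised 12 called on 0 arrays and 2 called on 1. Dim readings were commonest at E15.5, where 81 members had no knockout array above background, against 28 and 37 at the later stages. The wild-type arrays were also dimmest there, with no call for 39, 15 and 20 members at the 3 stages. Among the tested members, 7 were above background in wild type alone. Over all probe spots, the share above background ran from 59.0% to 72.3% per array, was lowest at E15.5, and no spot was saturated. On the slide of E15.5, wild-type replicate 1 stood above the other arrays at 65.3%.

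As a group, the members lay above the reference pool. Their mean log2 ratio over the 12 arrays had a median of 0.46 (range -2.99 to 5.68), against 0.06 for all probes tested. A level above the reference was seen for 161 of 211 tested members (76.3%), against 54.2% of all probes tested, and a level at least 4-fold over it for 32 (15.2%), against 6.62%.

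Array by array, the median log2 ratio of the 225 members was 0.41 and 0.26 in wild type at E15.5, and 0.02 and -0.04 in knockout. At E16.5 it was 0.82 and 0.72 in wild type and 0.22 and 0.14 in knockout. At E17.5 it was 0.88 and 0.91 in wild type and 0.36 and 0.33 in knockout. Both genotypes thus stood lowest at E15.5, and at each stage the wild-type medians lay above the knockout medians. The rule asked for that direction in the group means of the authors' values, so it favours this. The median over all probes tested lay between 0.04 and 0.06 on every array.

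**Figure D1:**
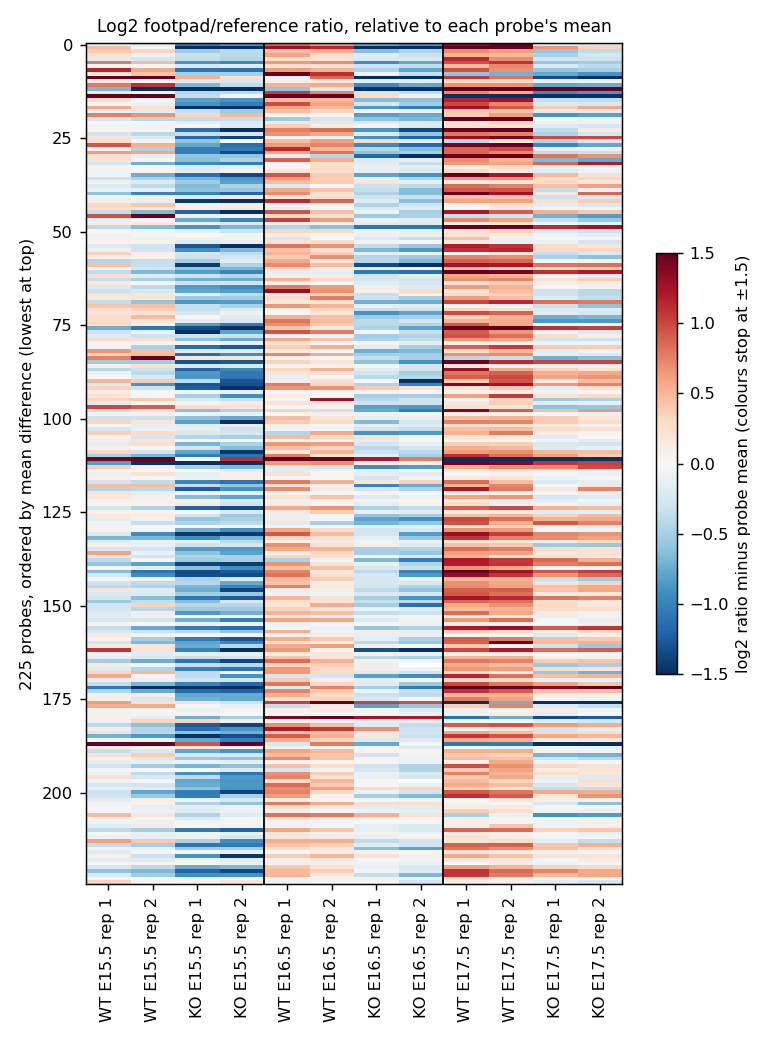
Log2 footpad over reference ratio of the 225 probes (vertical, lowest mean difference at the top) on the 12 arrays (horizontal, ordered by stage, wild type before knockout, black lines between stages). Colour is the ratio minus the probe's own mean over the arrays and stops at ±1.5, and grey or white gaps are spots left out as outliers. Within each stage the wild-type columns are redder than the knockout columns, and the E15.5 columns are bluer than the later ones.

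On the authors' scale, the difference had a median of -0.26 at E15.5 (range -1.42 to -0.10), -0.26 at E16.5 (-1.67 to -0.10) and -0.22 at E17.5 (-1.27 to -0.10). Averaged over the stages, the members were 1.76-fold lower in the median and 1.5-fold to 14.1-fold lower at the extremes. A mean of 2-fold or more was reached by 68 probes, and of 4-fold or more by the 10 printed first. At single stages, 93, 90 and 58 members were at least 2-fold lower, from the earliest to the latest, and 23 were so at all 3. On the authors' values, both knockout arrays lay below both wild-type arrays at every stage for 179 of the 225 (79.6%), a separation held by 4.27% of all spots. That share is set by the rule and carries no further weight.

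Log2 ratios computed from the scanner signals gave smaller differences. Over the 211 tested members the knockout minus wild-type median was -0.53 at E15.5, -0.67 at E16.5, -0.45 at E17.5 and -0.62 on average, while all probes had medians between -0.00 and 0.01. On this scale 208 of the 225 were lower in knockout at all 3 stages, and 22 of the 211 tested were at least 2-fold lower on average. The 225 include the 14 members that did not pass the background filter. The authors' values follow the same ratio, so the rule favours that direction and the counts are descriptions. Knockout arrays lay at positions 1 and 2 and wild-type arrays at 3 and 4 on each slide, so genotype and position cannot be told apart.

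The reference channel was nearly level between genotypes for most members. The Cy5 difference, knockout minus wild type averaged over stages, had a median of -0.02 log2 over the 211 tested members. For 11 members (5.21%) limma called Cy5 lower in knockout, against 0.257% of all probes, and for 0 members higher, against 0.132%. These 11 were bright in the footpad, with a median log2 ratio of 2.10 over the reference, and the largest Cy5 difference was -0.99 for Z00034984-1. The same RNA pool was used on every array, and a lower Cy5 signal raises the footpad ratio. The authors' values follow that ratio, so the Cy5 readings entered the rule and the Cy5 calls are descriptions. Whether Cy3 signal entered the Cy5 reading at the spots of these 11 members was not tested.

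Z00054665-1 had the lowest mean difference, 14.1-fold on the authors' values. Its log2 ratio in wild type was 0.61 and 0.55 at E15.5, 1.64 and 1.45 at E16.5, and 2.13 and 2.34 at E17.5. In knockout it was -0.28 and -0.11, then -0.02 and -0.14, then 0.58 and 0.50. The wild-type arrays were higher at every stage with no overlap, and each genotype was highest at E17.5. Its knockout arrays were not above background at the earlier stages, where the footpad signal was at least 1.25-fold and at least 2.50-fold lower than in wild type. At E17.5, where all arrays measured it, the log2 difference was -1.69 ± 0.11 (SE).

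A second probe with a large difference, Z00008117-1, was 10.3-fold lower on average. Wild-type log2 ratios were 2.84 and 2.41, 3.64 and 3.50, and 5.0 and 4.95 in order of stage. Knockout ratios were -0.24 and -0.23, 0.52 and 0.34, and 3.02 and 2.72. Both genotypes were highest at E17.5, and the knockout level there lay within the range of the E15.5 and E16.5 wild-type arrays. The E17.5 minus E15.5 difference was 2.34 log2 in wild type and 3.11 in knockout.

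By contrast, Z00071322-1 was low and nearly flat over time. Wild-type log2 ratios were 0.15 and 0.08 at E15.5, 0.22 and 0.31 at E16.5, and 0.48 and 0.41 at E17.5. Knockout ratios were -0.76 and -0.63, -0.85 and -0.68, and -0.82 and -0.61. The genotypes were well apart on all slides, while the knockout arrays of all stages overlapped. Its knockout arrays at E15.5 were not above background, and the bound there was at least 1.73-fold.

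Z00046552-1, Z00077373-1 and Z00022557-1 were above background on 0 knockout arrays, so only lower bounds hold for them. For Z00046552-1 the bound was at least 1.18-fold at E15.5, 1.52-fold a day later and 1.73-fold at E17.5. For Z00077373-1 it was at least 1.24-fold at E16.5 and 1.82-fold at E17.5. For Z00022557-1 it was at least 1.37-fold and 1.56-fold at those stages, and at E15.5 both of these probes were below background in wild type as well. The authors' values for these 3 probes gave mean folds of 7.44, 5.90 and 5.50, which lie far above the bounds. In the authors' table, 7 arrays shared 1 lowest value for Z00077373-1 and 4 knockout arrays did so for Z00022557-1, so part of their difference there is set by a floor.

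Wild-type levels of these 3 dim probes were higher at the later stages. Z00077373-1 read 0.15 and 0.06 in wild type at E15.5, 0.55 and 0.50 at E16.5, and 1.44 and 1.01 at E17.5, while its knockout log2 ratios stayed between -0.13 and 0.08. Z00022557-1 read 0.33 and 0.28, 0.54 and 0.53, and 0.77 and 1.02 in wild type, with knockout ratios between -0.08 and 0.15. Z00046552-1 read 0.36 and 0.08, 0.73 and 0.38, and 0.66 and 0.62, with knockout ratios between -0.35 and -0.06. On the log2 ratio, wild-type and knockout arrays did not overlap at any stage for any of the 3. At E15.5 that compares readings below background for Z00077373-1 and Z00022557-1. On the authors' values, wild-type replicate 2 of Z00077373-1 at E15.5 tied with knockout at 1.0009. The rule favours such separation, which 4.83% of all probes tested showed at every stage.

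Z00023904-1 and Z00032669-1 kept a wide gap at all stages. Wild-type log2 ratios of Z00023904-1 were 1.54 and 1.24, 1.40 and 1.45, and 1.72 and 1.85, and knockout ratios were -0.11 and -0.20, -0.17 and -0.00, and 0.20 and 0.25. For Z00032669-1 they were 2.55 and 1.98, 2.02 and 1.91, and 2.35 and 2.07 in wild type, and 0.30 and 0.27, 0.93 and 0.61, and 0.81 and 0.90 in knockout. Neither showed overlap between genotypes. The E15.5 knockout arrays were below background for both, with bounds of at least 2.65-fold and at least 3.14-fold, and the difference averaged over stages was -1.54 ± 0.06 and -1.51 ± 0.10 log2 (SE) on the measured ratios, those below background included.

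Z00040631-1 was highest at E16.5, where its wild-type arrays lay far apart. Its wild-type log2 ratios were 0.84 and 1.1 at E15.5, 3.32 and 1.77 at E16.5, and 0.07 and -0.04 at E17.5, and in knockout 0.17 and 0.17, 0.59 and 0.32, and -0.10 and -0.23. Its 2 wild-type arrays at E16.5 differed from each other by more than the E15.5 genotypes did, and at E17.5 no array of either genotype was above background. Z00005948-1, in contrast, was above background on all 12 arrays although it lay below the reference. Wild-type ratios were -0.95 and -1.13, -3.02 and -2.10, and -1.88 and -2.13, and knockout ratios were -2.40 and -2.71, -4.96 and -5.06, and -4.28 and -4.66. Its difference averaged -2.14 ± 0.14 log2 (SE), and both genotypes were lowest at E16.5.

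**Figure D2:**
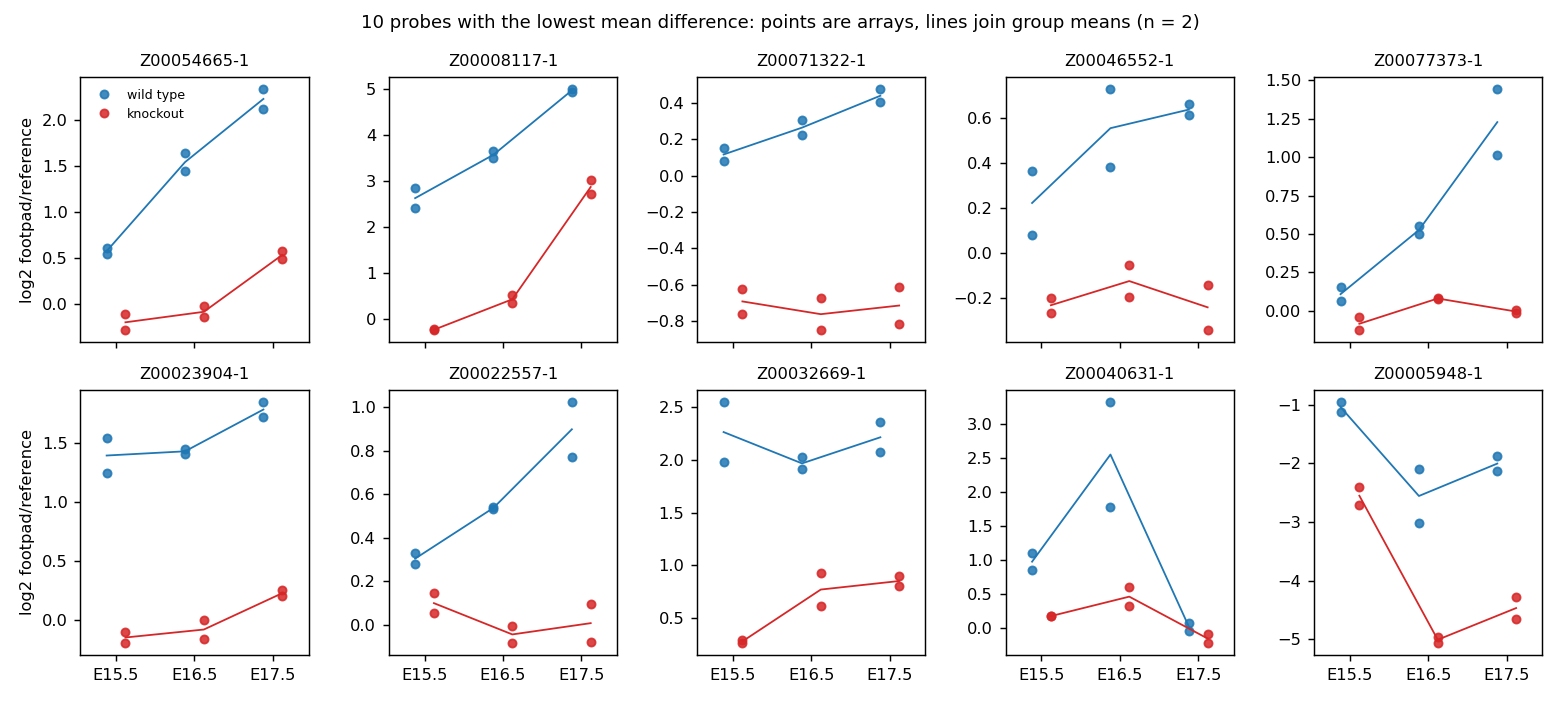
Log2 footpad over reference ratio (vertical, a scale of its own in each panel) of the 10 probes with the lowest mean difference against embryonic stage (horizontal). Points are arrays, blue for wild type and red for knockout, and lines join group means of 2 arrays. In every panel the wild-type points lie above the knockout points at each stage, and the gap for Z00040631-1 is smallest at E17.5.

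The stage of the largest difference varied among members. On the authors' values it was E15.5 for 93 probes, E16.5 for 69 and E17.5 for 63. The difference shrank at each step for 59 and grew at each step for 33. The spread between a probe's largest and smallest difference had a median of 0.17 on the log10 scale. Across the 225 probes, differences at E15.5 and E16.5 correlated at r = 0.49, at E16.5 and E17.5 at 0.54 and at E15.5 and E17.5 at 0.27. Those are descriptions over probes that share arrays and were chosen for a common direction.

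Some members were unequal enough over time to be described singly. Z00044430-1 differed by -0.870 log10 at the first stage, then by -0.122 and -0.165. Its knockout arrays at E15.5 were below background, so that its footpad signal there was at least 1.30-fold lower. Its log2 ratios at E17.5 were 0.87 and 0.94 in wild type and 1.08 and 0.95 in knockout, so the scanner values show it no lower at that stage. Z00023532-1 went from -0.754 at E15.5 to -0.119 and -0.357, and its log2 ratios at E17.5 were 1.95 and 1.90 in wild type and 2.16 and 2.49 in knockout. For this probe the 2 sets of values therefore had opposite signs at E17.5.

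Z00028697-1 was deepest at E16.5, with differences of -0.571, -1.02 and -0.119 log10. Wild-type log2 ratios were 3.81 and 1.79 at E15.5, 3.92 and 4.29 at E16.5, and 9.11 and 9.27 at E17.5, and knockout ratios were 0.72 and 0.91, 1.36 and 0.86, and 8.96 and 9.05. At E17.5 the genotypes were almost level, after a rise larger than that of any other tested probe at this step. Z00070179-1 took the opposite course, with -0.182, -0.497 and -0.813 log10. Its wild-type log2 ratios were 0.07 and -0.01, -0.65 and -0.69, and -0.29 and -0.07, and its knockout ratios were -0.36 and -0.19, -1.49 and -1.44, and -1.55 and -1.48. It was above background on all 12 arrays, and its gap at E17.5 came with a wild-type level near that of E15.5.

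**Figure D3:**
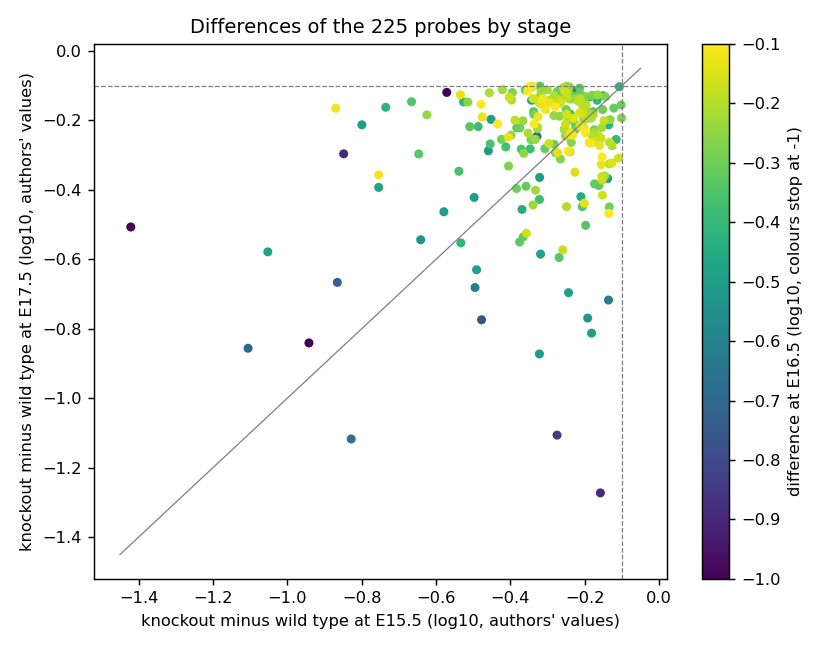
Knockout minus wild-type difference of the 225 probes on the authors' log10 values, at E15.5 (horizontal) and at E17.5 (vertical), coloured by the difference at E16.5. Dashed lines mark the rule's limit of -0.1, which fixes the upper and right edges of the cloud, and the grey diagonal marks equal differences; 93 probes were deepest at E15.5, all of them above the diagonal.

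Changes between stages, averaged over the genotypes, were not used to choose the members and were tested with limma. At both steps a larger share of the members than of all probes was called higher. Members could come only from the 25030 spots of the authors' table, whose choice is not stated. All probes here are the 30366 that passed the filter, and whether that difference bears on the shares was not tested. From E15.5 to E16.5, 124 of 211 tested members (58.8%) were higher, against 29.2% of all probes, and 20 (9.48%) were lower, against 33.3%. From E16.5 to E17.5, 107 (50.7%) were higher, against 19.8%, and 21 (9.95%) were lower, against 11.9%. The median step of the members was 0.30 and then 0.24 log2, against -0.02 and 0.02 for all probes tested. Each stage was hybridised on its own slide, which means that a stage cannot be told apart from its slide.

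A dim probe can pass the filter through its brighter stage alone, so the count was also made over the 127 members above background on all arrays. There 89 (70.1%) were higher at E16.5 than at E15.5, against 31.7% of the 23277 probes so measured, and 14 (11.0%) were lower, against 38.5%. At the next step 76 (59.8%) were higher, against 22.9%, and 17 (13.4%) were lower, against 14.0%. Scaling moves the split for the array as a whole. For the first step it was 8861 probes higher and 10115 lower with loess, 12491 and 6942 with median centring, and 11716 and 7422 with Agilent's processed signals. Median centring gave 112 members higher (53.1%, against 41.1% of all probes) and 21 lower (9.95%, against 22.9%). Agilent's signals gave 139 higher (65.9%, against 38.6%) and 14 lower (6.64%, against 24.4%). The authors' values gave 129 higher (57.3%, against 25.9% of spots) and 11 lower (4.89%, against 24.5%). Cy3 alone gave 118 higher (55.9%, against 32.7%) and 17 lower (8.06%, against 27%). The excess of higher calls among members was thus smallest with median centring. For the second step the split was 6027 higher and 3608 lower with loess, 3466 and 3746 with median centring, 3406 and 4110 with Agilent's signals, 2860 and 2925 with the authors' values, and 4384 and 4906 with Cy3 alone. The members kept more higher than lower calls in each of these. With median centring 96 of 211 were higher (45.5%, against 11.4% of all probes) and 16 lower (7.58%, against 12.3%). With Agilent's signals 79 were higher (37.4%, against 11.2%) and 19 lower (9%, against 13.5%). With the authors' values 74 of 225 were higher (32.9%, against 11.4% of 25030 spots) and 18 lower (8%, against 11.7%). With Cy3 alone 101 of 211 were higher (47.9%, against 14.4%) and 21 lower (9.95%, against 16.2%). The shares of lower calls thus lay nearer to those of the array than the shares of higher calls did. With Agilent's signals the median of all probes moved by 0.15 log2 at the first step, and the members stood 0.58 above it.

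Read over both steps, 70 members (33.2%) rose at both steps, against 5.19% of all probes. A rise at the second step alone was called for 24 (11.4%), against 4.8%. Rises at the first step alone, 40 (19% against 18.1%), and rises followed by a fall, 14 (6.64% against 5.86%), were near the share of the array. Another 13 fell and then rose (6.16% against 9.86%), 6 fell at the first step alone (2.84% against 21%), 6 at the second alone (2.84% against 3.57%) and 1 at both (0.474% against 2.45%). For 37 of the 211 neither step was called, and for 29.1% of probes. Within single genotypes, 67 members (31.8%) were at least 2-fold higher at E17.5 than at E15.5 in wild type, where 2.96% of probes were, and 73 (34.6%) in knockout, against 6.63%. At least 2-fold lower were 6 members (2.84%) in wild type, against 4.42%, and 6 in knockout, against 6.61%. Wild-type steps had medians of 0.33 and 0.18 over the 225 members and knockout steps of 0.20 and 0.20. The median step was thus above 0 in both genotypes. The means of single genotypes entered the rule, so these single-genotype values are descriptions. At E15.5, 81 members had no knockout array above background, so many knockout steps start from background.

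**Figure D4:**
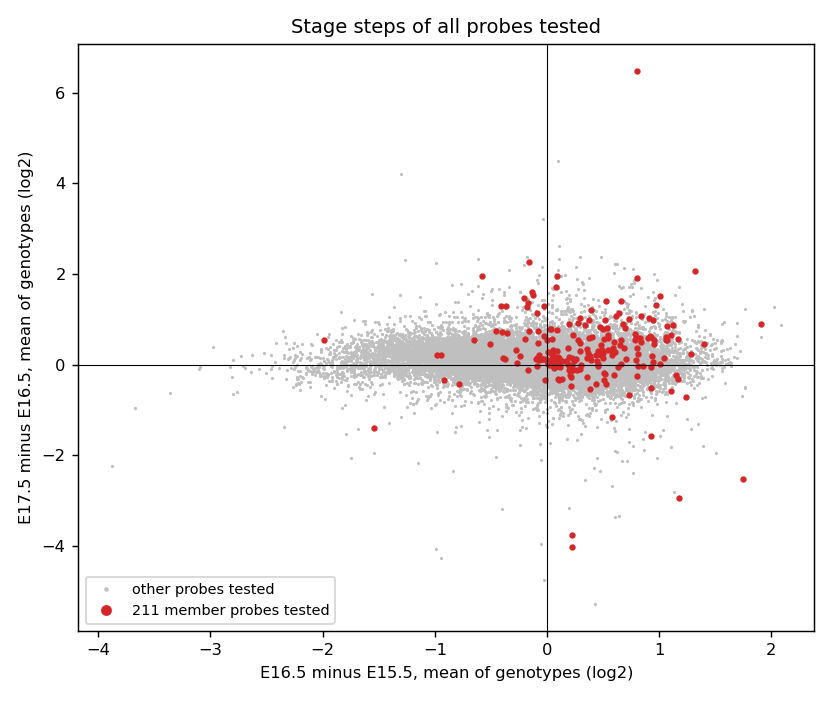
Log2 change from E15.5 to E16.5 (horizontal) and from E16.5 to E17.5 (vertical), averaged over the genotypes, for all 30366 probes tested. Red points are the 211 tested members and grey points the other probes. The members concentrate in the upper right, and single red points at 6.49, -3.75 (measured to background) and -4.01 on the vertical axis lie far from the rest.

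The largest rises from E15.5 to E16.5, among members whose arrays did not overlap between the stages, were those of Z00024996-1, Z00037890-1 and Z00035902-1. Z00024996-1 read 1.62 and 0.88 in wild type and 0.64 and 0.37 in knockout at E15.5, and 3.10 and 3.15 in wild type and 2.51 and 2.38 in knockout at E16.5, a rise of 1.90 ± 0.13 log2 (SE, limma adjusted p = 5.7e-07), or 1.20 with median centring. It was higher again at E17.5, at 3.90 and 3.83 in wild type and 3.53 and 3.48 in knockout. Z00035902-1 rose by 1.40 ± 0.11 (adjusted p = 1.76e-06).

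Z00037890-1 formed a peak at E16.5 in both genotypes. It read 0.17 and -0.02 in wild type and -0.64 and -0.41 in knockout at E15.5, 1.5 and 1.96 against 1.35 and 1.29 at E16.5, and -1.02 and -0.63 against -1.23 and -1.13 at E17.5. The rise was 1.75 ± 0.12 log2 (SE, limma adjusted p = 4.13e-07) and the fall that followed was -2.53 ± 0.12 (adjusted p = 3.67e-07). Z00018673-1 also stood highest at E16.5, where 1 wild-type array at 1.51 lay above the other 3, at 0.02 to 0.09. It then fell by 2.93 ± 0.29 (adjusted p = 4.74e-05).

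The largest falls at the first step, by the same rule, were those of Z00026161-1, Z00022998-1 and Z00070179-1. Z00026161-1 read 3.48 and 3.82 in wild type and 2.86 and 3.46 in knockout at E15.5, 1.68 and 2.69 against 1.16 and 1.93 at E16.5, and 0.85 and 0.85 against 0.00 and 0.19 at E17.5. It was the 1 member that fell at both steps, by 1.54 ± 0.23 log2 (SE, limma adjusted p = 0.00015) and by 1.39 ± 0.23 (adjusted p = 0.00115). Z00022998-1 fell by 0.98 ± 0.06 (adjusted p = 1.54e-07) and Z00070179-1, described above for its growing gap, by 0.95 ± 0.07 (adjusted p = 7.8e-07). The sizes depended on the scaling: with median centring they were -1.02 for Z00026161-1 at this step, -0.43 for Z00022998-1 and -0.63 for Z00070179-1, and the last was -1.46 with Agilent's signals and -1.53 with the authors' values.

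At the second step, Z00028697-1 rose by 6.49 ± 0.33 log2 (SE, limma adjusted p = 6.56e-07). Z00061222-1 read 0.63 and 0.44 in wild type and -0.02 and -0.01 in knockout at E16.5, and 2.86 and 2.73 against 2.19 and 2.31 at E17.5, a rise of 2.26 ± 0.08 (adjusted p = 8.96e-08). Its knockout arrays were below background at E16.5, so the knockout part of the rise is measured from background. Z00022648-1 rose by 2.08 ± 0.20 (adjusted p = 4.34e-05), from 2.37 and 3.28 in wild type and 2.02 and 1.49 in knockout to 4.73 and 4.61 and to 3.89 and 4.23.

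The steepest falls at the second step were in Z00027047-1 and Z00071877-1. Z00027047-1 read 4.42 and 5.20 in wild type and 2.94 and 4.07 in knockout at E15.5, 4.93 and 4.67 against 4.19 and 3.74 at E16.5, and 0.28 and 1.06 against 0.07 and 0.09 at E17.5. It fell by 4.01 ± 0.26 log2 (SE, limma adjusted p = 3.02e-06) and so lost most of its signal in both genotypes. Z00071877-1 read 4.73 and 5.26 in wild type and 2.25 and 2.60 in knockout at E15.5, and 5.58 and 4.58 against 2.89 and 2.67 at E16.5. At E17.5 its ratios were -0.01 and 0.58 in wild type and 0.13 and 0.02 in knockout, with 1 of the 4 arrays above background, so the fall ended at background and its size is not determined. The measured ratios differed by -3.75 ± 0.21 (adjusted p = 1.2e-06), and by -6.31 with Agilent's processed signals and -6.58 with the authors' values. At that stage its genotypes overlapped on the log2 ratio. The authors' values there were 1.0418 and 1.0418 in knockout and 1.0418 and 1.8278 in wild type. Its membership at E17.5 thus rests on 1 wild-type array, and its fall on the authors' values ends at that shared lowest value.

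The probes most like Z00054665-1 over the 12 arrays were, by Pearson correlation of log2 ratios, Z00070655-1 at 0.996, Z00023223-1 at 0.986, Z00024757-1 at 0.970, Z00043710-1 at 0.961 and Z00026843-1 at 0.960. The leading one has the identical sequence, and 3 of the other 4 are members. Z00054665-1 was itself picked for its knockout difference, which favours members among the probes most like it. Z00023223-1 read -0.31 and -0.33, 0.37 and 0.23, and 0.73 and 0.74 in wild type and -0.82 and -0.77, -0.56 and -0.84, and -0.56 and -0.29 in knockout. Z00043710-1, which is no member, moved over a smaller range, from 1.16 in knockout at E15.5 to 1.91 in wild type at E17.5.

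Partner probes were tested for 9 tested members in 12 pairs. Of these pairs, 4 belong to 1 member, Z00031086-1. The partner's mean difference over the stages was below 0 in all 12, though for Z00031820-1 by -0.06 ± 0.09 log2 (SE). Among the 14 members not tested, Z00058615-1 and Z00076165-1 had 4 tested partners, of which 3 lay above 0: Z00072484-1 at 0.09 ± 0.06 (SE), Z00076290-1 at 0.07 ± 0.06 and Z00077311-1 at 0.01 ± 0.07, while Z00077310-1 lay at -0.06 ± 0.05. Of all 17 partners, 14 lay outside the authors' table. Both probes of a pair were read in the same labelled samples on the same arrays, so the pairs do not check the biological difference. Where only a short run is shared, the partner may read a related transcript, and the pair does not check the probe either. Z00070655-1, with the sequence of Z00054665-1, differed by -1.24 ± 0.07 log2 (SE) against -1.36 ± 0.06, and both values include knockout arrays below background. Z00025579-1 differed by -0.65, against -0.66 for Z00074497-1, with which it shares 53 bases.

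Other pairs were further apart. Z00034984-1 read 3.37 and 3.51, 3.75 and 3.60, and 3.71 and 3.75 in wild type and 1.89 and 2.12, 2.53 and 2.53, and 2.89 and 2.83 in knockout. Its partner Z00057782-1, with 23 bases in common, read 4.11 and 4.17, 5.10 and 4.83, and 5.10 and 5.05 in wild type and 2.19 and 2.49, 3.12 and 3.01, and 3.54 and 3.61 in knockout. The difference was thus -1.73 log2 for the partner and -1.15 for the member, and the member is the probe with the lowest Cy5 difference given above.

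Z00031086-1 overlaps 4 further probes in different stretches, and signal from related transcripts cannot be told apart there. Z00031086-1 read 2.70 and 3.62, 2.03 and 1.99, and 1.40 and 1.45 in wild type and 1.66 and 1.67, 1.22 and 1.28, and 1.02 and 0.91 in knockout. Both genotypes were highest at E15.5, where wild-type replicate 2 stood above replicate 1. Its mean difference was -0.91 log2, against -0.97 for Z00059005-1, -0.71 for Z00031179-1, -0.50 for Z00073015-1 and -0.06 for Z00031820-1. The last was above background on 2 arrays. The same excess of wild-type replicate 2 at E15.5 was seen in Z00059005-1, at 2.51 and 3.45, and in Z00031180-1, a member that shares 31 bases with Z00075806-1, at 2.05 and 3.09.

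**Figure D5:**
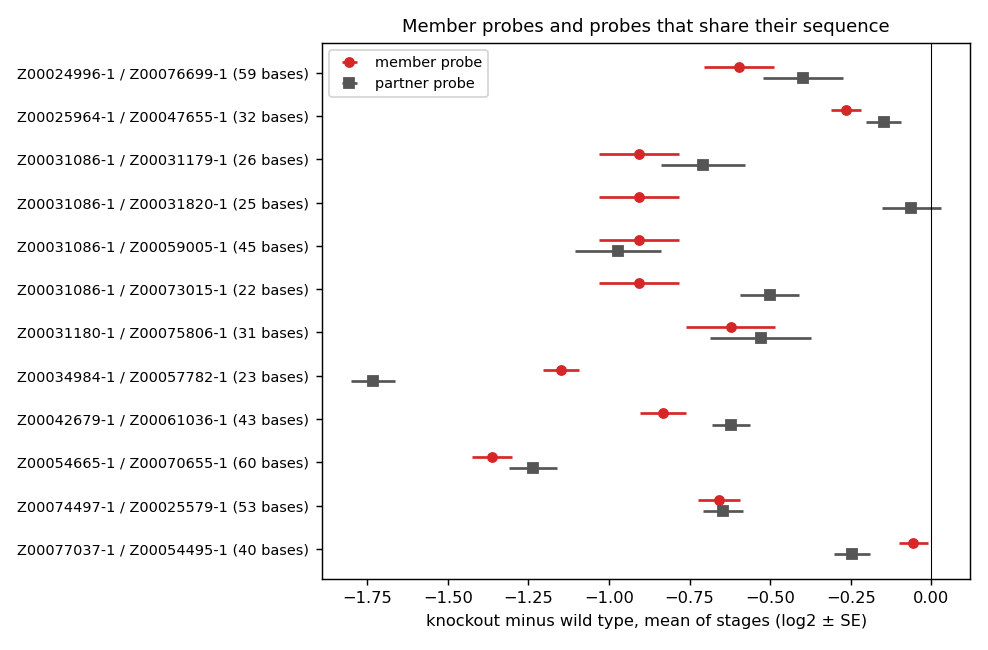
Knockout minus wild-type log2 difference averaged over the stages (horizontal, ± SE) for the 12 pairs in which both probes were tested (vertical, with the number of shared bases). Red circles are members and grey squares their partners. All partners lie left of 0, Z00031820-1 nearest to it at -0.06, and Z00057782-1 lies furthest left at -1.73.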

How the data were processed

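Footpad RNA (Cy3) and a common reference (Cy5) were hybridised on 12 arrays without dye swap, per the labels. The scanner images were quantified in Agilent Feature Extraction 9.5.1.1, per the file headers. Each deposited array file gives intensity per spot, a log10 ratio and other columns of scanner flags, per the file headers. The authors' series table is on a log10 scale, and its column differences correlated between 0.899 and 0.993 with footpad over reference. No source used here says how its spots were selected.

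The members and lists were chosen with earlier results of these data known. Intensities were corrected with normexp (offset 50) and normalized by loess within arrays in limma 3.58.1 (R 4.3.3), without control and outlier spots. An outlier spot dropped 1 knockout array at E16.5 for each of 2 members, Z00024923-1 and Z00009357-1. Probes with Cy3 well above background on 2 or more arrays were fitted with 6 group means and tested with limma's moderated test with Benjamini-Hochberg adjustment over 30366 probes at 0.05. Tests are reported for stage steps, and calls for the Cy5 channel are given as a description. The fit had 6 residual and 4.7 prior degrees of freedom and was tested on simulated data. Errors there were drawn independently for each array, so that test could not show an effect of pairing between arrays. A bound ("at least") sets the wild-type Cy3 mean against the higher of the knockout signal and the lowest signal called above background, each channel having been scaled with Aquantile after loess, and is open to dye bias. A log2 difference or step that includes such a group is that of the measured ratios and does not give the size of the change. The number of arrays limits the precision, and p-values reflect only how far these samples vary, possibly for technical reasons.

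Named probes are the 10 lowest members, the 3 nearest on each side of the threshold, the 3 largest rises and falls per step with stages apart, the 3 most unequal members per stage, and the 5 probes most like the lowest. Members with a partner probe were named after their values were seen. The planned gene lists and cell type markers were not analysed, since probes carry no gene names here. Deviations of same-numbered knockout and wild-type arrays correlated at r = 0.61, 0.25 and 0.16 from the earliest stage to the latest. Those of arrays from different stages correlated between -0.13 and 0.38, a range that holds the values of the later stages. The check thus set pairs apart at E15.5 only. The main fit ignored pairing. In alternatives, numbers were taken to pair samples within a stage, from this check alone, and with pairs as a random term fewer members were called at both steps. Alternatives covered the scaling, the filter, the rule, the replicate block and leaving out each array.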

Additional observations from a re-analysis of the deposited data

How the results depend on the processing

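The rule found 115 probes on loess-normalized scanner ratios, 97 of them members here, and 139 on Cy3 alone, 85 of them members here. A threshold of -0.30 on the mean kept 68, and leaving out single arrays gave 208 to 250. The members' median knockout minus wild-type difference was -0.49 log2 with median centring, -0.81 with Agilent's processed signals and -0.81 with the authors' values, against -0.62, and -0.63 to -0.56 without single arrays. With the authors' values, 11 of 225 members fell at the first step (4.89%, against 24.5% of spots), in place of 20 of 211 (9.48%, against 33.3% of probes). Without single arrays, calls among members at the first step numbered 127 to 140 in all, 107 to 122 higher and 15 to 22 lower, and at the second 112 to 137, 95 to 114 and 16 to 25. The shares over all probes in these fits are not given here, so the ranges do not show how far the members stood apart from the array. With the replicate block within a stage as a random term, an alternative added after seeing the data, 110 members were higher (52.1%, against 25.8% of all probes) and 16 lower (7.58%, against 30.2%) at the first step. At the second, 94 were higher (44.5%, against 15.2%) and 15 lower (7.11%, against 7.94%, which is near the background). Using means of pairs, also added, calls over all probes at the second step went from 9635 to 5555, and members higher from 107 to 90 of 209 (43.1%, against 12.1%). With the replicate number as block 124 members were higher (58.8%, against 30.1%) and 19 lower (9%, against 34.2%), then 112 (53.1%, against 21.8%) and 25 (11.8%, against 13.3%). The 12 probes named for a stage step kept direction and call in all 249 combinations of probe and alternative, with adjusted p from limma of at most 0.0127. They were chosen on these same arrays for large, called steps, which favours that outcome. Their sizes held less well: some moved by over 1.5 times with another scaling, as given with each. Dim signal limits the E15.5 knockout values most.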
